A study of Homo sapiens with 6 samples.

Results

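The transcripts of 59 transporter genes were followed in RKO cells, a human colorectal carcinoma line, after treatment with EZA and after DMSO, its solvent control. The genes were all protein-coding members of the families SLC1A, SLC6A, SLC7A, SLC36A, SLC38A and SLC43A in GENCODE 44, with SLC7A11 left out, together with the mitochondrial carriers SLC25A12, SLC25A13 and SLC25A22. They were 59 of the 58735 genes in the table, and each of the 59 had its own row. SLC7A6OS, a separate gene on the strand opposite SLC7A6, was not counted as a transporter. The study measured messenger RNA in 3 EZA libraries and 3 DMSO libraries, which it calls biological replicates, and nothing states further that they came from separate cultures. The name EZA is not expanded in the labels, and dose and duration are likewise not given in the sources used here.

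Amino acids cross membranes through carriers that differ in substrate, in coupling to sodium or protons, and in whether they import or exchange. In the plasma membrane, sodium-coupled carriers such as SLC38A1 and SLC38A2 fill the cell with small neutral amino acids and glutamine. Exchangers such as SLC7A5 trade these for large neutral and essential amino acids. SLC7A5 reaches the surface only in a pair with the heavy chain SLC3A2, which also holds SLC7A6 and SLC7A11. Several of these genes are known targets of ATF4, the transcription factor of the amino acid response, and colorectal tumours often carry much SLC7A5 and SLC1A5. The family names do not fix the cargo: SLC6A8 carries creatine, SLC6A6 carries taurine, and other SLC6A members carry neurotransmitters.

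The libraries held 16054218, 18840954 and 14070611 counts in EZA replicates 1 to 3, and 15778418, 15480220 and 15343614 counts in DMSO replicates 1 to 3. EZA replicate 3 stood apart. Mitochondrial genes took 0.203% of its counts, against 3.68% to 5.02% in the other 5 libraries, and its log-scale CPM (counts scaled to a library total of 1000000) correlated across genes with those of EZA replicates 1 and 2 at 0.964 and 0.962, where these correlated at 0.991 with each other. Of 10 epithelial markers, KRT18, KRT8, CDX2 and EPCAM had enough counts to be tested, and none of these 4 was called between the groups. KRT8 came nearest, at a log2 fold change of 0.61 with groups that did not overlap (edgeR adjusted p = 0.0545), and its part in the results was not tested. CDH1, LGR5 and MUC2 had 0 counts, and KRT19, KRT20 and VIL1 had at most 4 in all. Among leukocyte, endothelial, fibroblast and erythroid markers, PTPRC, CD3E, PECAM1, COL1A2, DCN, LUM and HBB had 0 counts. COL1A1, VWF, CDH5 and HBA1 had 16, 10, 1 and 1 in all. CD68 had 36, 27 and 0 counts in EZA replicates 1 to 3, and 18, 25 and 12 in DMSO replicates 1 to 3. It was tested and not called (log2 fold change 0.14, edgeR adjusted p = 0.918).

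EZA-treated cells carried more transcript of the large neutral carriers SLC7A5 and SLC43A2, the neutral exchangers SLC1A4 and SLC1A5, the cationic importer SLC7A1, the glycine importer SLC6A9, and SLC38A10. The largest changes were in SLC6A9, SLC7A5 and SLC1A4. They carried less transcript of the cationic carriers SLC7A2 and SLC7A6, of the mitochondrial aspartate carriers and of SLC36A4. Of the 59 genes, 25 had enough counts for edgeR's quasi-likelihood test, in which a gene was called at a Benjamini-Hochberg adjusted p below 0.05 over all 13503 genes tested. Of these 25, 7 were higher in EZA, 5 were lower and 13 were not called. Each of the 5 lower calls was lost in 3 to 9 of 18 alternative fits. Of the 7 higher calls, SLC1A5, SLC7A1, SLC38A10 and SLC43A2 were lost in 2 to 5, and the others in 0. The 12 calls are 48% of the tested members, where 17.7% of all tested genes were called, 9.89% as higher and 7.82% as lower. The median log2 fold change was 0.03 over the 25 genes and -0.01 over all genes tested. The study's own threshold is a log2 fold change of 1 or more in size with an unadjusted p under 0.05. In this edgeR fit 4 members met it in the higher direction and 0 in the lower, against 3.77% and 1.96% of all tested genes. In bulk RNA, fewer cells that express a gene and less RNA per cell cannot be told apart. EZA and DMSO values were fully apart in 14 of the 25 genes, or 56%, and in 42.7% of all tested genes.

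The counts of calls moved with the libraries. So did the calls over all tested genes. Without DMSO replicate 1, 3 members were called higher and 0 lower, against 1.15% and 0.451% of all tested genes. Without DMSO replicate 3 the members' counts were again 3 and 0, against 1.31% and 0.529% of all. The 3 genes were SLC1A4, SLC6A9 and SLC7A5, whose calls held in all 18 alternatives tried. Without DMSO replicate 2, 6 were higher and 1 lower, against 3.54% and 2.17% of all tested genes. Without EZA replicate 1, 6 were higher and 4 lower, against 7.07% and 4.38% of all. Without EZA replicate 2, 7 were higher and 1 lower, against 6.79% and 3.86% of all. Without EZA replicate 3, 9 were higher and 7 lower, all 12 calls among them, where 19.1% and 19.2% of all tested genes were then called in each direction. The log2 fold changes were then 3.38 for SLC6A9, 1.87 for SLC7A5, 1.56 for SLC1A4, 0.95 for SLC1A5 and 0.8 for SLC7A1.

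**Figure D1:**
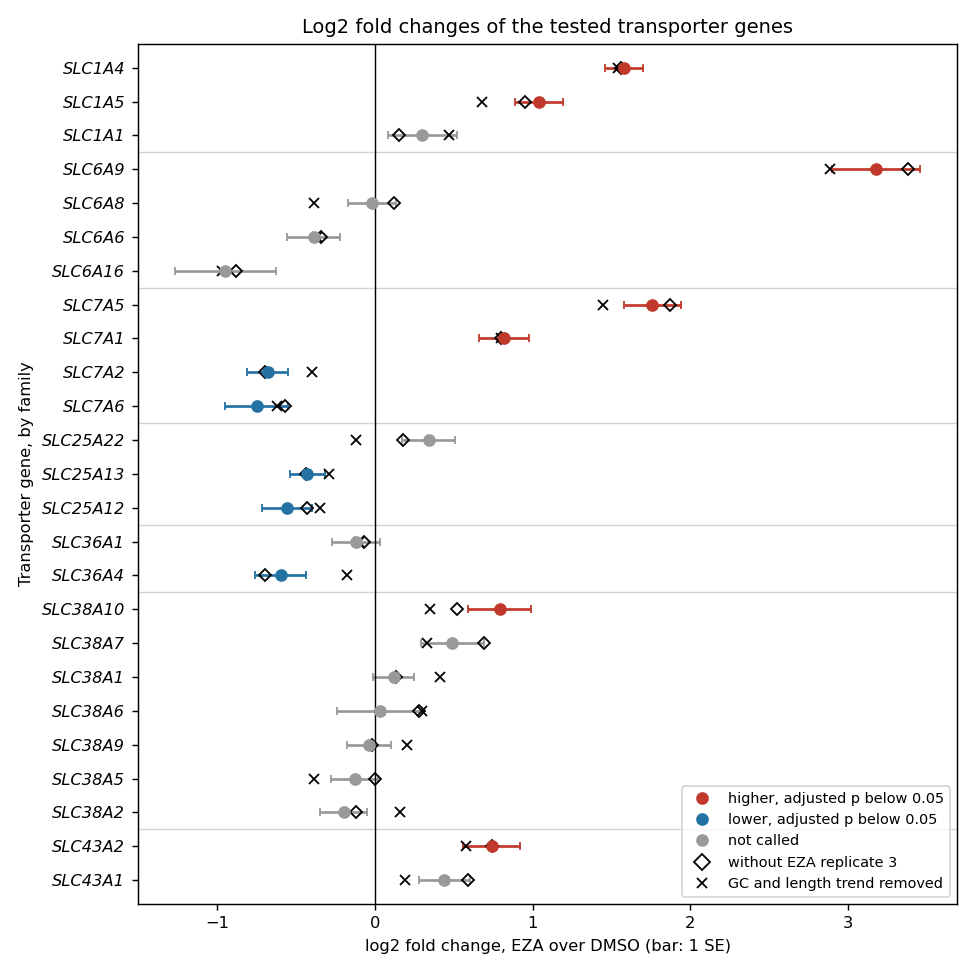
Log2 fold changes (EZA over DMSO) of the 25 tested transporter genes, by family, with bars of 1 SE from all 6 libraries. Diamonds leave out EZA replicate 3, and crosses take out the trend with GC content and length. The genes run from SLC6A9, at 3.18, to SLC6A16, at -0.95, and the crosses of SLC36A4 and SLC38A10 lie nearer to 0 than their circles.

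SLC7A5 (ENSG00000103257, chromosome 16, 87830023 to 87869507, GRCh38), the light chain of the main exchanger of large neutral amino acids, had the highest mean FPKM of the members in EZA cells, although in EZA replicate 3 it had 189 FPKM and SLC1A5 had 202. FPKM, as deposited, are counts scaled by gene length and library total. SLC7A5 had 1269.5, 1089.9 and 916 CPM in EZA replicates 1 to 3, against 283, 379 and 307 CPM in DMSO replicates 1 to 3. Every EZA library lay far above every DMSO library, and EZA replicate 3 was the lowest of its group. Its log2 fold change was 1.76 ± 0.18 (SE; edgeR adjusted p = 0.00113). A pseudogene copy, SLC7A5P1, took 85, 57 and 89 counts in EZA and 35, 49 and 38 counts in DMSO, with the counting of shared reads not given in the sources used here.

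SLC3A2, the heavy chain, which belongs to another family, rose as well. It had 897, 996 and 1589 CPM in EZA and 218, 257 and 223 CPM in DMSO, and its log2 fold change was 2.32 ± 0.23 (SE; edgeR adjusted p = 0.001), and here EZA replicate 3 was the highest library. The FPKM gave a ratio of SLC7A5 to SLC3A2 of 1.54, 1.19 and 0.629 in EZA replicates 1 to 3 and of 1.42, 1.61 and 1.5 in DMSO replicates 1 to 3. The ratio thus overlapped between the groups, and it was lowest in EZA replicate 3. SLC7A11, the cystine carrier that uses the same heavy chain, had 314, 308 and 409 CPM in EZA and 20.8, 23.7 and 25.5 CPM in DMSO.

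SLC43A2 and SLC43A1 move large neutral amino acids without exchange. SLC43A2 (ENSG00000167703, chromosome 17, 1569268 to 1628886) had 36.8, 33.8 and 36.1 CPM in EZA and 18, 27.2 and 18.5 CPM in DMSO. DMSO replicate 2 lay nearest to the EZA libraries, and the groups did not overlap (log2 fold change 0.74 ± 0.18, SE; edgeR adjusted p = 0.0269). The adjusted p was 0.0623 without EZA replicate 1, 0.135 without DMSO replicate 1 and 0.133 without DMSO replicate 3, so the call was lost. SLC43A1 had 67.2, 66.7 and 47.8 CPM in EZA and 41.9, 47.8 and 44.2 CPM in DMSO, and EZA replicate 3 lay level with the highest DMSO library. It was not called with all 6 libraries (log2 fold change 0.44 ± 0.16, SE; edgeR adjusted p = 0.0863), and without EZA replicate 3 it passed at 0.59 (adjusted p = 8.15e-05).

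Both neutral amino acid exchangers of the SLC1A family rose. SLC1A4 (ENSG00000115902, chromosome 2, 64988477 to 65023865), which exchanges alanine, serine and cysteine, had 106, 101 and 108 CPM in EZA and 35.2, 35.4 and 34.3 CPM in DMSO. The replicates of each group lay close together and the groups far apart (log2 fold change 1.58 ± 0.12, SE; edgeR adjusted p = 0.00022). SLC1A5 (ENSG00000105281, chromosome 19, 46774883 to 46788594), the glutamine exchanger, had 607, 550.3 and 687 CPM in EZA and 271, 347 and 282 CPM in DMSO. No DMSO library reached the lowest EZA library (log2 fold change 1.04 ± 0.15, SE; edgeR adjusted p = 0.00573). Its adjusted p was 0.0554 without DMSO replicate 1 and 0.0518 without DMSO replicate 3, and the log2 fold change was 0.68 once the GC and length trend was taken out (adjusted p = 0.0104). SLC1A1, a glutamate and aspartate importer that can also bring in cysteine, had 10.9, 9.72 and 13.9 CPM in EZA and 10.8, 6.83 and 10.3 CPM in DMSO, with overlapping groups (edgeR adjusted p = 0.37).

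The carriers of cationic amino acids split. SLC7A1 (ENSG00000139514, chromosome 13, 29509414 to 29595688), the widespread importer of arginine, lysine and ornithine, had 586, 414 and 528 CPM in EZA and 273, 315 and 276 CPM in DMSO. It was higher in all 3 EZA libraries, with EZA replicate 2 the lowest of them (log2 fold change 0.82 ± 0.16, SE; edgeR adjusted p = 0.0132), and the adjusted p was 0.087 without DMSO replicate 1 and 0.0818 without DMSO replicate 3. SLC7A2 (ENSG00000003989, chromosome 8, 17497088 to 17570573), a second cationic importer, had 44.6, 41.9 and 45.3 CPM in EZA and 76.4, 61.2 and 74 CPM in DMSO. It was lower in every EZA library (log2 fold change -0.68 ± 0.13, SE; edgeR adjusted p = 0.0135), and its adjusted p was 0.0856 without DMSO replicate 1 and 0.0868 without DMSO replicate 3. Once the GC and length trend was taken out it was at -0.4 (adjusted p = 0.0369). The FPKM of SLC7A1 were 13.5, 10.2 and 12 times those of SLC7A2 in EZA replicates 1 to 3, and 3.68, 5.28 and 3.84 times in DMSO replicates 1 to 3. That these ratios did not overlap follows from SLC7A1 being higher and SLC7A2 lower in every EZA library, and is no separate result.

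SLC7A6 (ENSG00000103064, chromosome 16, 68264516 to 68301823) pairs with SLC3A2 and exchanges cationic for neutral amino acids. It had 29, 23.1 and 16.8 CPM in EZA and 34.5, 37.3 and 43.8 CPM in DMSO. EZA replicate 3 was the lowest library, and the groups did not overlap (log2 fold change -0.75 ± 0.2, SE; edgeR adjusted p = 0.0377). The adjusted p was 0.0786 without EZA replicate 2, and 0.114, 0.0965 and 0.158 without DMSO replicates 1, 2 and 3. It was 0.085 once the GC and length trend was taken out, so the call was lost in each case. SLC7A6 and SLC7A6OS share 3372 of the 7588 exon bases of SLC7A6, and the libraries do not mark strand. SLC7A6OS had 341 counts in EZA and 431 in DMSO, against 2935 counts of SLC7A6 over the 6 libraries.

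SLC6A9 (ENSG00000196517, chromosome 1, 43991500 to 44031467), the sodium- and chloride-coupled glycine importer, showed the largest log2 fold change among the 25 tested members. It had 16.7, 13.7 and 9.4 CPM in EZA and 1.56, 1.66 and 1.15 CPM in DMSO. EZA replicate 3 was the lowest of its group and still lay far above every DMSO library (log2 fold change 3.18 ± 0.28, SE; edgeR adjusted p = 0.000504). The counts behind these values were 263, 249 and 133 in EZA and 25, 26 and 18 in DMSO, and 413 of its 5249 exon bases overlap CCDC24 on the other strand, which had 240 counts in EZA and 153 in DMSO.

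The other 3 tested SLC6A genes were not called. SLC6A8, the creatine importer, had 239.9, 236 and 175 CPM in EZA and 199.5, 237 and 221 CPM in DMSO, with overlapping groups (log2 fold change -0.02 ± 0.15, SE; edgeR adjusted p = 0.956). Once the GC and length trend was taken out SLC6A8 was at -0.39 (adjusted p = 0.177). With EZA replicate 3 left out as well it passed at -0.2 (adjusted p = 0.00889). SLC6A6, the taurine importer, had 51.5, 34 and 38.6 CPM in EZA and 54.1, 55.7 and 52.9 CPM in DMSO. Its EZA libraries all lay below the DMSO libraries, but it missed the threshold (log2 fold change -0.39 ± 0.17, SE; edgeR adjusted p = 0.132) and passed without EZA replicate 1 (0.0444) or EZA replicate 3 (0.0417). SLC6A16, whose cargo is unsettled, had 1.9, 0.994 and 1.2 CPM in EZA and 2.19, 3 and 2.75 CPM in DMSO (log2 fold change -0.95 ± 0.32, SE; edgeR adjusted p = 0.0671), and also passed without EZA replicate 1 (0.0465) or EZA replicate 3 (0.0295).

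**Figure D2:**
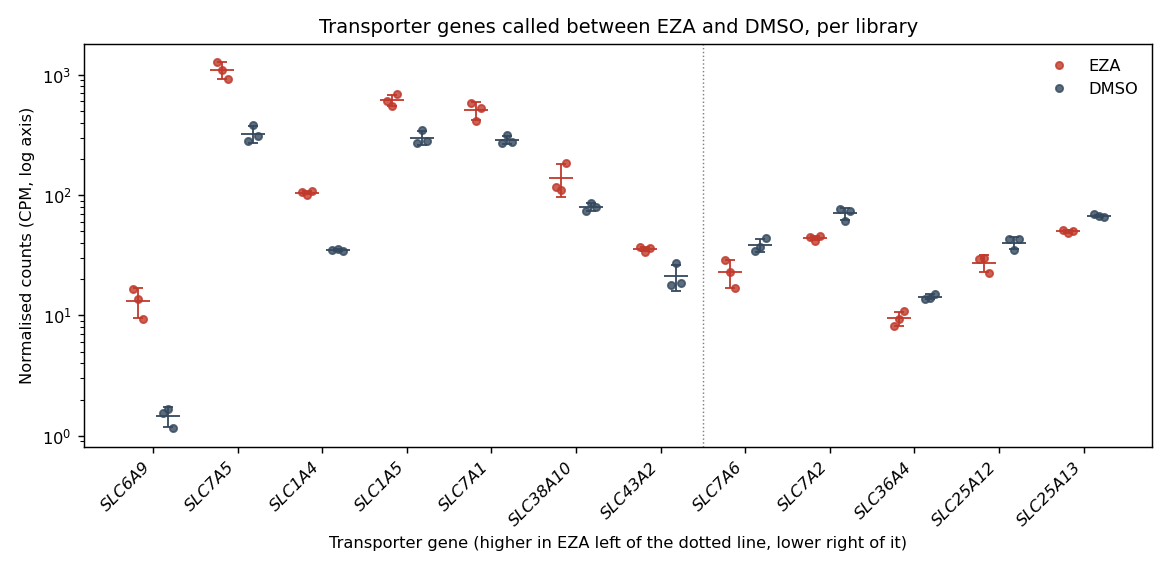
CPM of the 12 called transporter genes on a logarithmic vertical axis, a point per library, EZA left of DMSO in each pair, with the group's mean as a short line and its SD as whiskers (n = 3 each). No gene's groups overlap; SLC6A9 lies at 13.3 CPM in EZA and 1.46 CPM in DMSO on average, and SLC1A4 at 105 and 35.0 CPM.

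Promoter sequences from RefSeq (GRCh38.p14), 250 bases before to 50 after each annotated start, were searched for the core of the C/EBP-ATF response element, TGATGNAA, on both strands, because ATF4 is known to act through that element in several of these genes. A promoter was found for 23 of the 25 tested members, all but SLC6A6 and SLC7A2, with 38 starts in all. The core was in 1270 of 35116 promoters of 300 bases, or 3.62%, and in 4 of the members' 38. Of these 4, 3 belong to genes called higher (3 of their 12 promoters), and 1 to SLC38A1, which was not called. The promoters of the genes called lower that were found, 5 for 4 genes, held no match in this window. At a share of 3.62% over all promoters, 5 promoters are too few to show a lack of the core. The 4 promoters are shown 5′ to 3′ on the strand of the gene with the match in capitals, SLC1A4 at chr2:64989149-64989448 on the plus strand and SLC1A5 at chr19:46784765-46785064, SLC7A1 at chr13:29595639-29595938 and SLC38A1 at chr12:46266467-46266766 on the minus strand.
SLC1A4: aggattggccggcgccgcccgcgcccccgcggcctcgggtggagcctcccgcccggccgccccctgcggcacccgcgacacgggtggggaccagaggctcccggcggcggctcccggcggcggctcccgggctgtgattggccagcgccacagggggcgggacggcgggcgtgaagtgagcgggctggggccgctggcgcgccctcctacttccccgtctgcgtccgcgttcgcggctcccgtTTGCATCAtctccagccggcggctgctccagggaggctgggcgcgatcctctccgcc
SLC1A5: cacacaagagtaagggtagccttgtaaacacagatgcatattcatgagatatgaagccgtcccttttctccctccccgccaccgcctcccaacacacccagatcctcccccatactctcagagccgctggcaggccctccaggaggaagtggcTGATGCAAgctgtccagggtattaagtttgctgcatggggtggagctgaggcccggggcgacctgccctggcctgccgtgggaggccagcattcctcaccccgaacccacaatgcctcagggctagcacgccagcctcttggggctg
SLC7A1: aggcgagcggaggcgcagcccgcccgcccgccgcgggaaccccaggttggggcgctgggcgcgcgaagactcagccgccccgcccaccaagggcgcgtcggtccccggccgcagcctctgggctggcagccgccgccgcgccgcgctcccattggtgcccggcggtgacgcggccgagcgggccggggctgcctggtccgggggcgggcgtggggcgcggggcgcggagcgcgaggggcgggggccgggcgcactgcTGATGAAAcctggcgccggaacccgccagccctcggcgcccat
SLC38A1: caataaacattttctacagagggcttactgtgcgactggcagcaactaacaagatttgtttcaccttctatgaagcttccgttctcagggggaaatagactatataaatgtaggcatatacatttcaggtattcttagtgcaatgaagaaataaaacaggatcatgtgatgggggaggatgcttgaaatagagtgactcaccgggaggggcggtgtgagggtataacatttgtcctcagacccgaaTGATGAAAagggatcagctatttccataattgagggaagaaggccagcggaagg
The match in SLC1A4 begins at position -7 from a start inside the gene and reads on the strand opposite the gene. The match in SLC1A5 begins at -97 and that in SLC38A1 at -4, each from a start inside the gene. That in SLC7A1 begins at 8 from the start at the gene's outer end. The promoters at the outer ends of SLC1A4 and SLC1A5 held no match to this core. SLC7A5, SLC6A9, SLC38A10 and SLC43A2 had no match in their windows. The core of the antioxidant response element, TGACNNNGC, was in 6 of the 38 promoters and in 13.3% of all, and the E box CACGTG in 9 of the 38 and in 7.26% of all. By call, the antioxidant core was in 3 of 12 promoters of genes called higher, 2 of 5 called lower and 1 of 21 not called. For the E box these were 2 of 12, 1 of 5 and 6 of 21. In 1 promoter, that of SLC25A13, 2 of these motifs overlapped, by 2 bases. A match describes letters and not a bound site.

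The SLC38A family holds sodium-coupled carriers of small neutral amino acids and lysosomal relatives. Of its 7 tested genes, 1 was called and 6 were not, where 17.7% of all tested genes were called. SLC38A1 and SLC38A2, which load the cell with alanine, serine and glutamine, were abundant in both groups. SLC38A1 had 905, 829 and 865 CPM in EZA and 833, 745 and 809.5 CPM in DMSO (log2 fold change 0.12 ± 0.13, SE; edgeR adjusted p = 0.534). SLC38A2, a known target of the amino acid response, had 648, 668 and 549 CPM in EZA and 791, 624 and 733 CPM in DMSO (log2 fold change -0.2 ± 0.15, SE; edgeR adjusted p = 0.37). The groups overlapped in both genes. With the GC and length trend removed, SLC38A1 passed at 0.41 (adjusted p = 0.0365), and SLC38A2 was at 0.16, which turns its direction. SLC38A5, which moves glutamine, histidine and glycine in exchange for protons, had 209, 206 and 155 CPM in EZA and 192, 226 and 206 CPM in DMSO (edgeR adjusted p = 0.559). With the trend removed SLC38A5 was at -0.39 (adjusted p = 0.0794). With EZA replicate 3 left out as well it passed at -0.27 (adjusted p = 0.000943).

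SLC38A10 (ENSG00000157637, chromosome 17, 81244811 to 81295547), an intracellular relative, was the family's called gene. It had 117, 110.3 and 186 CPM in EZA and 73.8, 85.6 and 79.1 CPM in DMSO, with EZA replicate 3 well above the other EZA libraries (log2 fold change 0.79 ± 0.2, SE; edgeR adjusted p = 0.0308). It was at 0.52 without EZA replicate 3 and at 0.35 once the GC and length trend was taken out, where its call was lost (adjusted p = 0.134). The call was also lost without DMSO replicate 1, 2 or 3 (adjusted p = 0.143, 0.0821 and 0.123). SLC38A7, a lysosomal exporter of glutamine and asparagine, had 81.3, 72.8 and 47.6 CPM in EZA and 43.3, 53.1 and 47.4 CPM in DMSO. EZA replicate 3 lay among the DMSO libraries. The gene was not called (log2 fold change 0.49 ± 0.2, SE; edgeR adjusted p = 0.117), and without EZA replicate 3 it passed at 0.69 (adjusted p = 9.72e-06). SLC38A9, a lysosomal arginine sensor that signals to mTORC1, had 18.7, 17.7 and 17.6 CPM in EZA and 18.2, 16.9 and 20.5 CPM in DMSO (edgeR adjusted p = 0.867). SLC38A6 had overlapping groups at 6.93 to 14.2 CPM in EZA and 9.26 to 13.2 CPM in DMSO (edgeR adjusted p = 0.953).

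Some members of the SLC36A family move small neutral amino acids with protons, in part out of lysosomes. SLC36A4 (ENSG00000180773, chromosome 11, 93144174 to 93197991), a high-affinity carrier of proline and tryptophan, had 8.19, 9.33 and 10.8 CPM in EZA and 13.8, 14 and 15.1 CPM in DMSO. Every EZA library was lower (log2 fold change -0.6 ± 0.16, SE; edgeR adjusted p = 0.0358). It was at -0.18 once the GC and length trend was taken out (adjusted p = 0.421), and its call was lost without EZA replicate 1 or 2 or without any DMSO replicate, with an adjusted p of 0.0813 to 0.164. SLC36A1, the lysosomal member, had 33.5, 26.1 and 26.7 CPM in EZA and 28.2, 32.3 and 33.1 CPM in DMSO, with overlapping groups (edgeR adjusted p = 0.615).

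Both aspartate-glutamate carriers of the mitochondrial inner membrane, which serve the malate-aspartate shuttle, were lower. SLC25A12 (ENSG00000115840, chromosome 2, 171783405 to 171999859) had 29.6, 29.9 and 22.5 CPM in EZA and 43, 35 and 42.8 CPM in DMSO, with no overlap (log2 fold change -0.56 ± 0.16, SE; edgeR adjusted p = 0.045). SLC25A13 (ENSG00000004864, chromosome 7, 96120220 to 96322147) had 51.1, 48.1 and 50.8 CPM in EZA and 69, 67 and 65.7 CPM in DMSO. Its replicates lay close together in both groups (log2 fold change -0.43 ± 0.11, SE; edgeR adjusted p = 0.0355). Both calls were lost once the GC and length trend was taken out, at -0.35 for SLC25A12 and -0.29 for SLC25A13 (adjusted p = 0.119 and 0.0831), and without any single library other than EZA replicate 3, with an adjusted p of 0.0654 to 0.181. SLC25A22, a mitochondrial glutamate importer, had 86.3, 77.8 and 111 CPM in EZA and 62, 81.9 and 74.3 CPM in DMSO. Its groups overlapped (log2 fold change 0.34 ± 0.17, SE; edgeR adjusted p = 0.196), and once the GC and length trend was taken out it was at -0.12.

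The remaining 34 members had too few counts to be tested. Of these, 20 had 0 counts in all 6 libraries, which allows up to 3 counts of the 95568035 in the table, or 0.0314 CPM, a limit that covers counting error only. The other 14 had between 1 and 48 counts in all. The 34 included 15 of the 19 SLC6A genes, among them the carriers of GABA, serotonin, dopamine and noradrenaline. SLC7A7, which pairs with SLC3A2, had 23 counts in EZA and 25 in DMSO, and SLC38A4 had 14 and 26. SLC7A8, a second large neutral exchanger, had 4 counts in EZA and 1 in DMSO. SLC1A3, a glutamate importer of glia, had 8 and 3, and SLC6A4, the serotonin importer, had 2 in EZA and 10 in DMSO.

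The order of the levels per length differed between the groups. In EZA cells SLC7A5 was at 228 ± 37.2 FPKM and SLC1A5 at 182 ± 18.4, followed by SLC38A2 at 93.3 ± 10.4, SLC38A1 at 85.6 ± 3.11, SLC7A1 at 65.5 ± 10.7, SLC38A5 at 46.8 ± 7.87 and SLC6A8 at 39.1 ± 6.88 (SD, n = 3). In DMSO cells SLC38A2 led at 106 ± 12.2 FPKM, followed by SLC1A5 at 88.2 ± 12.5, SLC38A1 at 77.9 ± 4.16, SLC7A5 at 66.8 ± 10.7, SLC38A5 at 50.9 ± 4.39, SLC6A8 at 39.1 ± 3.49 and SLC7A1 at 36.7 ± 3.12 (SD, n = 3). In EZA the ranges of 1 SD around the mean overlapped between SLC7A5 and SLC1A5, between SLC38A2 and SLC38A1, and between SLC38A5 and SLC6A8, and the step below SLC1A5 was far larger than the spread. In DMSO these ranges overlapped between neighbours from SLC38A2 down to SLC7A5, and between SLC6A8 and SLC7A1.

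Within a library, the share of the 59 genes' summed FPKM does not depend on the library total. SLC7A5 took 28.3%, 27% and 23% of it in EZA replicates 1 to 3, and 10.4%, 13.1% and 11.1% in DMSO replicates 1 to 3. SLC1A5 took 19.3%, 19.4% and 24.5% in EZA and 14.2%, 17.1% and 14.5% in DMSO. SLC38A2 took 10.4%, 11.9% and 9.91% in EZA and 20.9%, 15.5% and 19% in DMSO. For these 3 genes every EZA share lay outside the DMSO range, and no test was run on the shares. The summed FPKM of the 59 genes were 932, 854 and 824 in EZA and 562, 600 and 568 in DMSO. A share falls when the sum rises, and SLC38A2 itself was not called, with FPKM that overlapped between the groups.

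**Figure D3:**
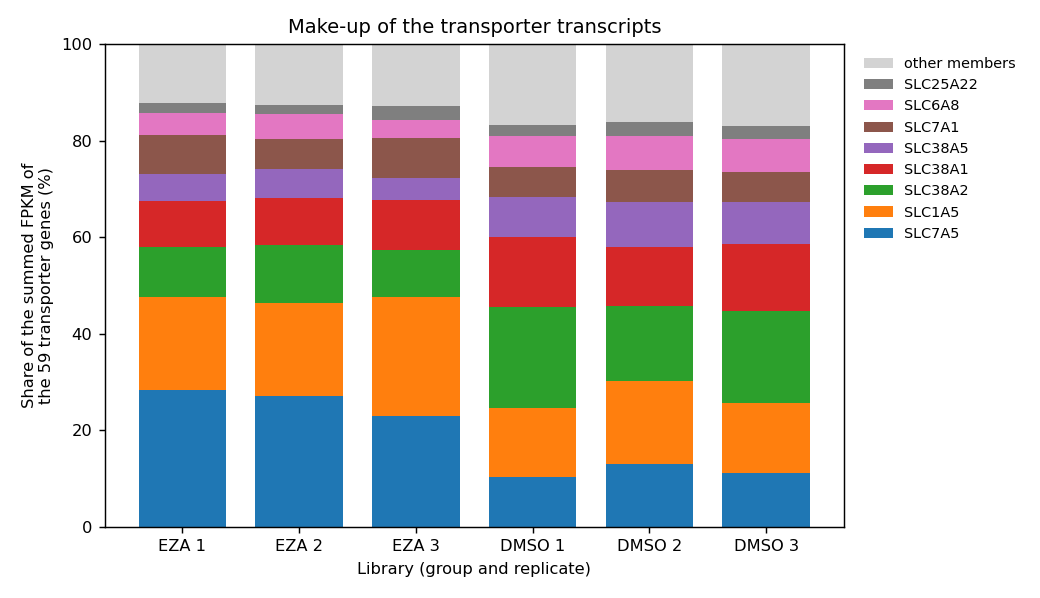
Bars give each library's make-up of the summed FPKM of the 59 transporter genes, in percent, for the 8 genes with the largest shares and all others in grey. SLC7A5, at the bottom, takes 23% to 28.3% in the 3 EZA libraries and 10.4% to 13.1% in the 3 DMSO libraries. SLC38A2 takes a smaller share in each EZA library than in any DMSO library, while its own FPKM overlap between the groups.

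Fold changes followed the GC content of the transcript over all genes, and the called members split by it. All 7 members called higher had a GC content above 50%, and all 5 called lower were below it. The median log2 fold change of protein-coding genes was -0.31 at a GC content of up to 40% and 0.44 above 60%. Above 60%, 31.2% of all protein-coding genes were called higher, and so were 3 of the 5 tested members there. From 55% to 60%, 16.8% were called higher, and so were SLC6A9 and SLC43A2 among 5 members. From 50% to 55%, 10.6% were called higher, and so were SLC1A4 and SLC7A1 among 5 members. From 45% to 50%, 7.6% were called lower, and so was SLC7A6, the 1 member there. From 40% to 45%, 13.1% were called lower, and so were 3 of 5 members. Up to 40%, 20.1% were called lower, and so was SLC36A4 among 4 members, which is near that share. With the trend removed, 7 members were higher and 1 lower, where 6.57% and 4.82% of all tested genes were called in each direction. SLC38A1 entered the higher group and SLC38A10 left it, and SLC7A2 was the gene still called lower. SLC1A4 was then at 1.54, SLC7A5 at 1.45, SLC6A9 at 2.89 and SLC7A1 at 0.8 on the log2 scale. The part of GC content in the other calls was not tested beyond this removal.

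**Figure D4:**
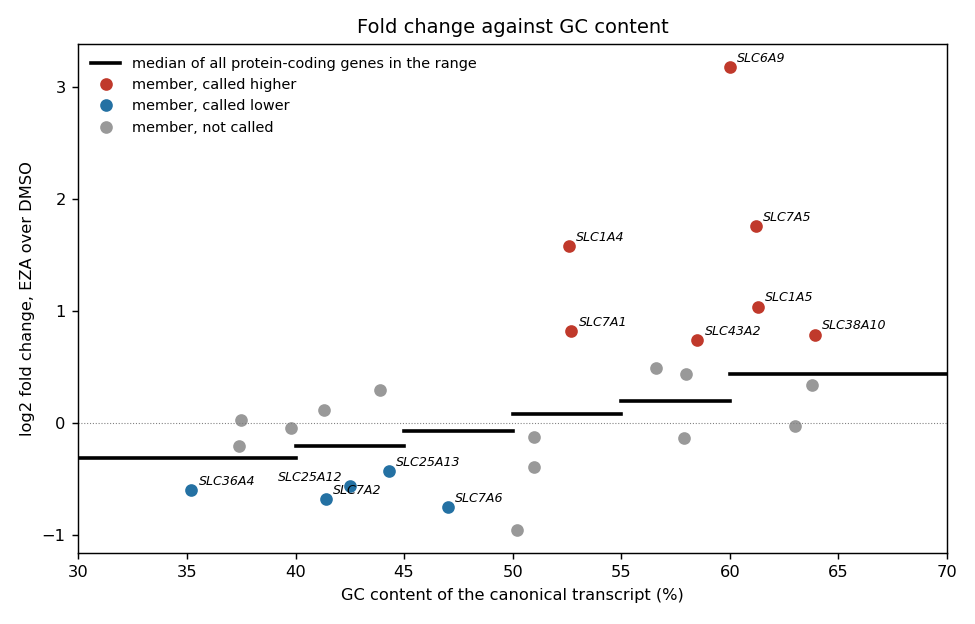
Each point is a tested transporter gene, placed by the GC content of its canonical transcript (horizontal, percent) and by its EZA-over-DMSO log2 fold change (vertical). Black lines give the median of all protein-coding genes in a range of GC content. The medians climb through the 6 ranges, and SLC6A9, SLC7A5, SLC1A4, SLC1A5 and SLC7A1 lie well above the line of their range.

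Of 6 genes for heavy chains and accessory proteins, 3 were tested, SLC3A2 rose and NEDD4L fell. Over all tested genes, 9.89% were called higher and 7.82% lower. NEDD4L, a ubiquitin ligase that takes transporters off the membrane, had 34, 35.1 and 32.4 CPM in EZA and 43.9, 46.7 and 44.5 CPM in DMSO (log2 fold change -0.41 ± 0.12, SE; edgeR adjusted p = 0.0462). It was at -0.23 once the GC and length trend was taken out (adjusted p = 0.224). This call was lost in 12 of the 18 alternatives, among them those without any 1 library other than EZA replicate 3, with an adjusted p of 0.0814 to 0.183. Of 10 other carriers in the plasma membrane and vesicles, 4 were tested and 0 were called, where 17.7% of all tested genes were. Their log2 fold changes ran from -0.42 to 0.03.

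Of 10 tested mitochondrial carriers outside the members, 1 was called higher and 1 lower, near the 9.89% and 7.82% of all tested genes. SLC25A38, which brings glycine into mitochondria for haem synthesis, had 91.5, 106 and 112 CPM in EZA and 76, 76.1 and 77.7 CPM in DMSO (log2 fold change 0.43 ± 0.12, SE; edgeR adjusted p = 0.0447). SFXN1, a mitochondrial serine importer, had 84.1, 85.5 and 63.2 CPM in EZA and 121, 112 and 110.4 CPM in DMSO (log2 fold change -0.56 ± 0.15, SE; edgeR adjusted p = 0.0327). Both were lost without any 1 DMSO library and with the trend removed, at 0.35 for SLC25A38 and -0.36 for SFXN1; SFXN1 was also lost without EZA replicate 1 (0.0533) and SLC25A38 without EZA replicate 2 (0.0942).

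Of 3 tested lysosomal carriers outside the members, SLC66A1 and MFSD12 were called higher, where 9.89% of all tested genes were. Their GC contents were 63.6% for SLC66A1 and 67.8% for MFSD12, and above 60% the share called higher was 31.2% of protein-coding genes. SLC66A1, a lysosomal exporter of cationic amino acids, had 74.1, 67.8 and 84.1 CPM in EZA and 35.4, 45.2 and 40.5 CPM in DMSO (log2 fold change 0.9 ± 0.15, SE; edgeR adjusted p = 0.00776). Once the GC and length trend was taken out it was at 0.44 (adjusted p = 0.0265). MFSD12, which takes cysteine into lysosomes and melanosomes, had 94.5, 98 and 113 CPM in EZA and 59.1, 76.8 and 65.6 CPM in DMSO (log2 fold change 0.6 ± 0.14, SE; edgeR adjusted p = 0.0258), and with the trend removed it was at 0 (adjusted p = 1). Without DMSO replicate 1 or 3 both were lost, with an adjusted p of 0.0601 and 0.0561 for SLC66A1 and of 0.131 and 0.128 for MFSD12.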

How the data were processed

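Polyadenylated RNA of RKO cells was made into unstranded libraries, per the labels' protocols. Build GRCh38 (hg38) and the tools HISAT2, featureCounts, FastQC and DESeq2 appear in the submitters' processing notes, with versions, options and annotation not given in the sources used here. Raw counts and FPKM for each Ensembl gene were deposited by the authors. In the deposited FPKM, a gene's counts were scaled by a fixed gene length and a fixed library total. Tests used the counts, and levels between genes the FPKM.

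Groups and replicate numbers came from the titles, and no value column was left unassigned. GENCODE 44 held 58207 of the 58735 rows and gave symbols, positions and the length and GC content of canonical transcripts. The main test was edgeR's robust quasi-likelihood F test (two-sided, no covariates) after filterByExpr and TMM, with Benjamini-Hochberg adjustment over 13503 genes that held 99.8% of all counts. Standard errors were derived from F, and CPM from TMM-scaled tested genes. Lowess offsets per library (span 0.3) took out the GC and length trend. Chi-square values per degree of freedom between replicates, 5.1 to 127, exceeded counting noise. The p-values cover only the spread among these libraries, which may be technical. Nothing in the labels says that a replicate number marks a shared culture or day, so numbers were not taken as pairs. Deviations of same-numbered libraries correlated at 0.0327, -0.175 and 0.0266, which with 3 replicates per group cannot exclude a pairing.

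Members and lists were chosen with earlier results of these data known. All called members were named, and, among those not called, the 5 most abundant and the 5 with the largest change. The 4 tested members outside this rule were named after their values were seen. The result for 1 marker gene is not reported here. The code was tested on simulated data. Overlapping genes and close copies have uncertain counts. Alternatives covered scaling, filters, tools, the replicate block, the trend and each library left out. Software comprised edgeR 4.0.16, limma 3.58.1 and DESeq2 1.42.0 under R 4.3.3, with Python 3.11.15.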

Additional observations from a re-analysis of the deposited data

How the results depend on the processing

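The calls of SLC1A4, SLC6A9 and SLC7A5 held in all 18 alternatives, with log2 fold changes of 1.52 to 1.62, 2.87 to 3.38 and 1.43 to 1.9. Leaving out 1 library gave 3 to 9 members called higher and 0 to 7 lower, against 158 to 2640 and 62 to 2649 of all genes. The labels do not say whether a replicate number pairs libraries. A replicate block gave 7 members higher and 2 lower, with 1133 and 837 of all genes, and the block with the GC and length trend removed gave 5 and 0, with 371 and 231 of all genes. The trend removed alone gave 7 and 1, with 887 and 651 of all genes, and without EZA replicate 3 as well it gave 12 and 9, with 2787 and 2542. By the study's threshold, 4 members were higher and 0 lower in the main fit. With library size alone 3 were higher and 1 lower, and with the trend removed 3 and 0. With a library left out, 3 or 4 were higher and 0 to 2 lower. The cause of these shifts was not tested.

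Directions turned only among members not called with all 6 libraries. With the trend removed, with the trend removed and the replicate block, and with the trend removed and EZA replicate 3 left out, SLC25A22 was at -0.12, -0.13 and -0.21, SLC38A2 at 0.16, 0.15 and 0.26, and SLC38A9 at 0.2 in each. In the last of these SLC25A22 and SLC38A2 passed the threshold in the turned direction (adjusted p = 0.0264 and 0.00137). SLC38A6 was at -0.03 with library size alone, -0.02 with the block and -0.01 with limma-voom. With 1 library left out, SLC6A8 ranged over -0.09 to 0.12, SLC38A6 over -0.17 to 0.28 and SLC38A9 over -0.09 to 0.04. The 34 untested members had at most 48 counts each, and no comparison was made for them. Alternatives for genes outside the members were chosen after seeing the data.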
